A study of Mus musculus with 16 samples.

Results

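Glutamate receptors carry most fast excitatory transmission in the cortex, and the scaffolds of the postsynaptic density hold them opposite the site of release. The 38 genes described here are 24 glutamate receptor genes (7 NMDA, 4 AMPA, 5 kainate, 1 delta and 7 metabotropic receptor genes) and 14 scaffold genes (3 Shank, 4 Dlg, 4 Dlgap and 3 Homer genes). They were chosen as a gene family, with earlier results of these data known, and the rule itself uses no value of the peak lists. A peak was counted for one of them when it overlapped its GENCODE M39 exons on the same strand. All 38 genes were found in the annotation, 35 of them held at least 1 m6A peak, and their 730 peaks formed 219 of the 52776 regions of the series.

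N6-methyladenosine (m6A) is a methyl mark on adenosine within mRNA, placed co-transcriptionally in RRACH sequence contexts and most often in long internal exons, near the stop codon and in the 3' UTR. Reader proteins that bind the mark act on the stability, transport and translation of the mRNA, and neuronal mRNAs such as those of receptors and scaffolds are among the transcripts known to carry it. NMDA, AMPA and kainate receptors are ion channels opened by glutamate. Metabotropic receptors couple to G proteins. Shank, Dlg, Dlgap and Homer proteins link receptors to one another and to the cytoskeleton.

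MeRIP-seq (immunoprecipitation of fragmented RNA with an m6A antibody, then sequencing) was performed on cerebral cortical peri-infarct tissue. Sham mice had the surgery without the filament, and the MCAO/R mice had the middle cerebral artery blocked for 2 h and then reperfused for 0 h, 6 h or 24 h (groups called MCAO/R with the hours, or by the hours alone). The mice were male C57BL/6J of 6 to 8 weeks and 6 per group. Each group has 2 IP peak lists, 8 in all, and 8 input libraries were not analysed here. The labels do not say whether the 2 lists of a group come from separate mice or from pools, so spreads and p-values describe these lists and may be technical.

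A peak list tells where enrichment was called, not how much RNA or how many cells there were, so a smaller number of neurons and less mRNA per neuron cannot be told apart. The lists held 18775 to 24078 peaks, with a mean of 21196 ± 1991 (SD, n = 8), and no read counts, so the sequencing depth is unknown. The paper reports fewer confident m6A peaks per sample than these lists hold, and how its number relates to the lists is not stated. Every listed peak was used here. As a check of the labelled tissue, the excitatory cortical neuron markers Tbr1 and Neurod6 held a peak in all 8 lists and Slc17a7 in 1, and 4 of 5 microglia, 2 of 4 astrocyte, 2 of 4 oligodendrocyte and 4 of 4 endothelial markers held one in at least 1 list. None of the 3 neutrophil markers (S100a8, S100a9 and Mpo) held one. Of 4 more general neuronal genes, Map2 held a peak in 7 lists, Rbfox3 in 5, and Snap25 and Syt1 in none, which in a peak list says nothing about their RNA level.

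Of the 38 genes, 22 held a peak in all 8 lists, 13 in 1 to 7 lists and 3 in none (Grin1, the obligatory NMDA subunit, the retinal receptor gene Grm6, and Homer2). Of the 219 regions, 24 (11%) in 19 genes were in all 8 lists, against 8.97% of all regions. In 1 list only were 103 of them (47.0%), against 52.6% of all regions. Over all 21770 protein-coding genes, 52.6% held a peak in at least 1 list and 18.8% in all 8. Given how the genes were chosen, these shares are a description. The number of the 38 genes with a peak was 29 and 27 in the Sham lists, 31 and 31 at 0 h, 31 and 29 at 6 h and 27 and 31 at 24 h. Both lists at 0 h were above both Sham lists, while the later groups overlapped with Sham, and the means were 28 ± 1.41, 31 ± 0, 30 ± 1.41 and 29 ± 2.83 genes (SD, n = 2 each). The lists at 0 h held 19837 and 24078 peaks and the Sham lists 18775 and 20152. The part of list length in these numbers of genes was not tested.

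**Figure D1:**
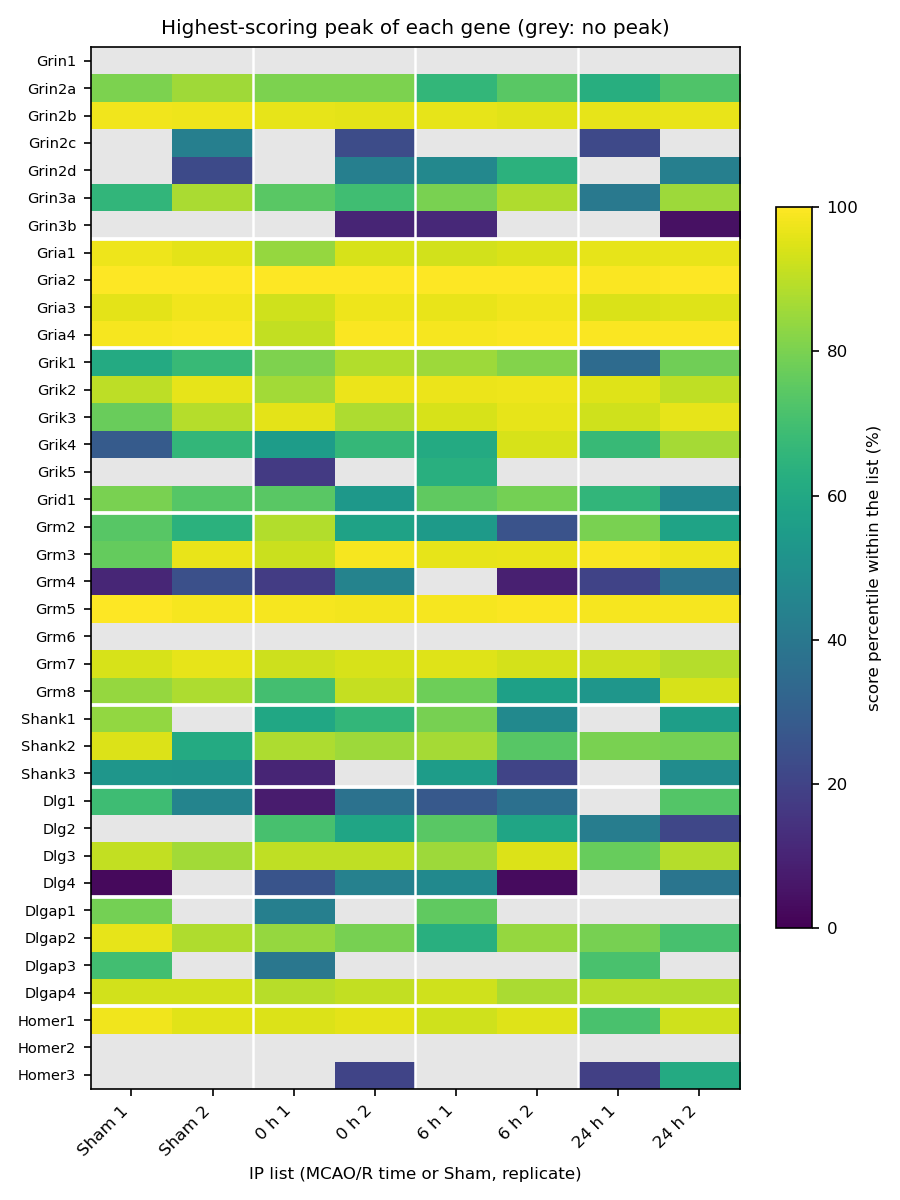
Score percentile of the highest-scoring peak of each of the 38 genes (rows, grouped by family) in each of the 8 IP lists (columns); the score percentile is the percent of the peaks of that list with a lower score, and grey marks no peak. The highest-ranking peaks are those of Gria2, Gria4 and Grm5, Grin1, Grm6 and Homer2 are grey throughout, and Dlg2 is grey in the Sham lists only.

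A score comes with every peak, on a scale the authors do not define, and was used here only to rank the peaks within a list. The 10 regions that ranked highest among those present in all 8 lists, 1 per gene, are listed below. The place and the GRCm39 position are those of the printed sequence. For Homer1 the region itself was centred in the CDS, 48 nt before the stop codon. The sequence shown for each is 25 bases around a GGACT, the commonest form of the m6A motif in textbooks, or where the region has none around whichever of 5 other forms lay nearest to the centre of the region: AGACT or GAACT or AAACT or GGACA or GGACC. It is given as the mRNA strand reads, with T for U, and the capitals mark the motif. The motif was searched on the transcribed strand only.
Gria2, 3' UTR, chr3:80595643-80595667, minus strand: gaagcgtggtGGACAtgcacagcta
Gria4, 3' UTR, chr9:4419966-4419990, minus strand: acggaaatgcAGACTcggatttttt
Grm5, 3' UTR, chr7:87780814-87780838, plus strand: caagatttctGGACTctttcaccat
Grin2b, 5' UTR, chr6:136148714-136148738, minus strand: taattgccggAGACTccttaaatct
Gria3, 3' UTR, chrX:40765391-40765415, plus strand: gaacactctgAGACTtgcgacaatg
Grik2, 3' UTR, chr10:48977048-48977072, minus strand: tatgaactagAGACTcttgtgatct
Gria1, 3' UTR, chr11:57218790-57218814, plus strand: tgaagaaatcAAACTgtttaatttt
Grm7, CDS, chr6:111335208-111335232, plus strand: ccttgctgctGGACTtgtgagccct
Grik3, 3' UTR, chr4:125602684-125602708, plus strand: gaagaaatatGGACTctataaaaat
Homer1, 3' UTR, chr13:93538780-93538804, plus strand: tgtcttcctaGGACTgtttgggctc

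The region of each gene was centred on the bases covered by the most lists, and the printed motif lay 6 to 57 nt from that centre in Gria2, Gria4, Grin2b, Gria3 and Grik2, but 105 to 575 nt away in Grm5, Grm7, Grik3 and Homer1, where a GGACT was taken, and 174 nt away in Gria1. None of the 24 regions present in all 8 lists held GGACT within 50 nt of its centre, against 15.8% of 4726 windows of 101 nt around the same kind of regions in all genes. AGACT was found in 20.8% of the 24 windows, as were GAACT and GGACA (all genes 20.2%, 18.9% and 18%), AAACT in 8.33% (19.9%) and GGACC in 16.7% (10.9%). RRACH itself (R is a purine, H any base but G) was found in 83.3% of them and in 90.3% of all windows. A match is a description and not a mapped site.

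All 4 AMPA receptor genes held a peak in every list, and in each the region that ranked highest and was present in all 8 lists lay in the 3' UTR of the last exon, between 158 and 408 nt past the stop codon. Gria2, the subunit that sets calcium permeability, had the highest median percentile of the 24 regions in all lists, at 99.8. Its region (chr3:80595432-80595806, 408 nt past the stop codon) stood at 99.9 and 99.6 in Sham, 99.7 and 99.8 at 0 h, 99.9 and 99.8 at 6 h and 99.6 and 99.7 at 24 h, so the groups overlapped within a fraction of a percentile. Gria4 (chr9:4419571-4424373, 196 nt past the stop codon) stood at 98.7 and 99.5, 90.7 and 99.6, 98.8 and 99.6, and 99.3 and 99.3 in the same order, with 1 MCAO/R-0 h list below all others. Gria3 (chrX:40765295-40765694, 183 nt past) stood at 95.7 and 97.8, 92.9 and 97.4, 96.6 and 97.9, and 94.5 and 95.1. Further along the 3' UTR, regions of Gria1 (2370 nt past the stop codon) and Gria4 (1796 nt past) were listed in 7 lists each.

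Gria1, the other main subunit of cortical AMPA receptors, was the only one of the 24 regions whose ranks differed among the groups by the unadjusted test. Its region (chr11:57218578-57219027, 158 nt past the stop codon) stood at 97.6 and 95.7 in Sham, 76.1 and 88.3 at 0 h, 93.2 and 94.5 at 6 h and 96.4 and 96.5 at 24 h. Both MCAO/R-0 h lists were below all other 6 lists. The exact permutation test over all 105 divisions of the 8 lists into 4 pairs, counting those that separated the groups at least as much, gave p = 0.0286, and p = 0.705 after Benjamini-Hochberg adjustment over the 4735 regions tested. The difference therefore did not pass the correction. Without any 1 list of Sham, MCAO/R-6 h or MCAO/R-24 h the unadjusted exact permutation p ranged from 0.152 to 0.2, and without either MCAO/R-0 h list it was 0.0286. Over all genes, 6.67% of the regions had an unadjusted p under 0.05 and 0% an adjusted one, and of the 24 regions of receptors and scaffolds 1 (4.17%) and 0 did.

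**Figure D2:**
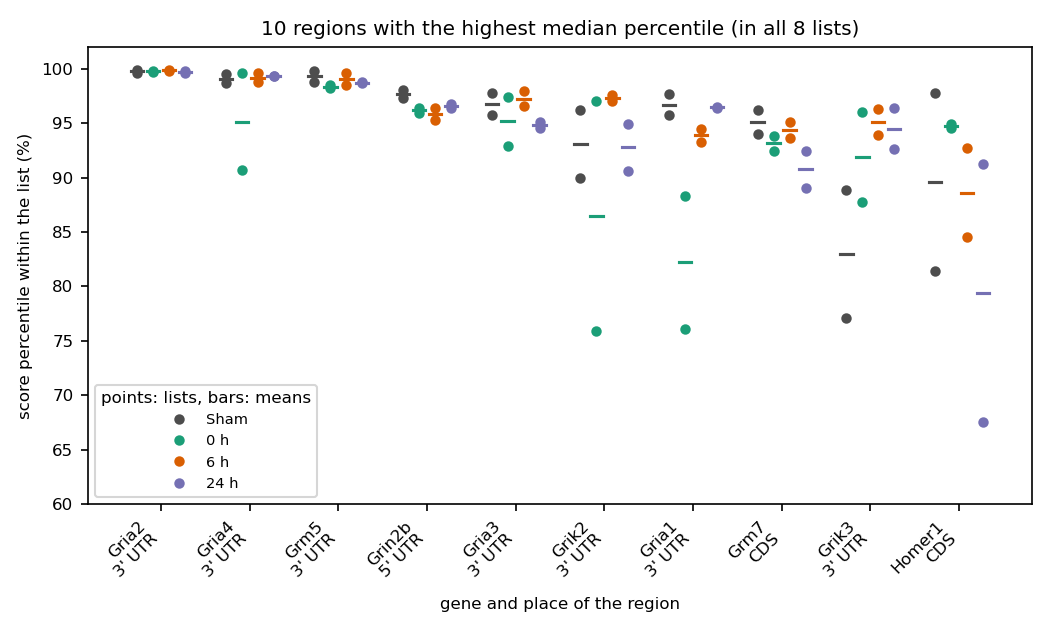
Score percentile (y axis, from 60) of the 10 highest-ranking regions that were present in all 8 lists (x axis, gene and place); points are single lists, coloured by group, and short bars are group means of 2 lists. The MCAO/R-0 h points of Gria1 lie at 76.1 and 88.3, below its other 6 lists, while in Gria2 all 8 points lie between 99.6 and 99.9.

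NMDA receptor genes differed in the number of lists in which they held a peak. Grin2a, Grin2b and Grin3a held peaks in all 8 lists (22, 36 and 53 peaks in all), Grin2d in 5, Grin2c and Grin3b in 3 and Grin1 in none. All 3 peaks of Grin3b lay where exons of Tmem259 run on the opposite strand, and each was found in 1 list only, at percentiles of 4.57 to 11.4. Grin2b, the subunit prominent in early life and at extrasynaptic sites, ranked highest near its start. The region in exon 2 of 14, in the 5' UTR (chr6:136148494-136148793, where an exon of Gm65988 overlaps on the same strand), stood at 98.0 and 97.3 in Sham, 96.4 and 96.0 at 0 h, 96.4 and 95.3 at 6 h and 96.4 and 96.8 at 24 h. All 6 MCAO/R lists were below both Sham lists, by a difference of group means of at most 1.78 percentiles, and the exact permutation test gave p = 0.0571 (adjusted p = 0.706). A further region present in all 8 lists lay far into its 3' UTR, 2255 nt past the stop codon, with a median percentile of 90.3.

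Grin2a, the subunit prominent in mature synapses, is described here because its values were noticed after they were computed. Its region in the long last exon, in the CDS 1569 nt before the stop codon, stood at 80.1 and 85.6 in Sham, 80.4 and 80.1 at 0 h, 66.1 and 63.2 at 6 h and 62.7 and 72.5 at 24 h. The lists of the later times were below those of Sham and MCAO/R-0 h without overlap, and the exact permutation test gave p = 0.0857 (adjusted p = 0.749). This did not pass the threshold. Of the 105 divisions, 15 keep the 2 lists of any given group together, so a shift of 1 group alone is hard to tell from the spread with 2 lists per group. The Grin2a values set 2 groups against 2, and the smallest p that such a pattern can reach was not worked out. Its p therefore does not show that the groups were alike. Over the 24 regions the range of the group means exceeded the largest gap between the 2 lists of a group in 6, with medians of 12.6 and 14.3 percentiles. The same count over the regions of all genes is not given, so this number is a description only.

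Kainate receptors modulate both transmitter release and postsynaptic excitability, and 4 of their 5 genes and the delta receptor gene Grid1 were marked in every list. Grik5 was listed in 2 lists only (1 at 0 h and 1 at 6 h). The Grik2 region in the 3' UTR of the last exon (chr10:48976704-48979665, 152 nt past the stop codon) stood at 90 and 96.2 in Sham, 75.9 and 97.0 at 0 h, 97.1 and 97.6 at 6 h and 95 and 90.6 at 24 h. The MCAO/R-6 h lists were the highest, but the 2 lists of MCAO/R-0 h differed from each other by more than any group means did. The last exon of Grik3 is 6277 nt long and held 11 regions, 10 of them in the 3' UTR. That with the highest rank (chr4:125602594-125603593, 1099 nt past the stop codon) stood at 77.1 and 88.8 in Sham, 96.0 and 87.8 at 0 h, 93.9 and 96.3 at 6 h and 92.6 and 96.4 at 24 h, with Sham and MCAO/R-0 h overlapping.

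Among metabotropic receptors, Grm2, Grm3, Grm5, Grm7 and Grm8 held peaks in all 8 lists, Grm4 in 7 and Grm6 in none. Grm5, the postsynaptic receptor that Homer proteins bind, had the highest median after Gria2 and Gria4, 98.7, with a 3' UTR region (chr7:87780194-87781043, 431 nt past the stop codon) at 99.8 and 98.8 in Sham, 98.5 and 98.2 at 0 h, 98.5 and 99.6 at 6 h and 98.8 and 98.7 at 24 h. It also held regions in all 8 lists in its 5' UTR and in exon 7 of 9, with median percentiles of 87.8 and 86.2. Grm7, a presynaptic receptor, ranked highest within a coding exon. Its region in exon 8 of 11 (chr6:111335195-111335944, 562 nt before the stop codon) stood at 94.0 and 96.2 in Sham, 92.4 and 93.9 at 0 h, 95.1 and 93.6 at 6 h and 92.5 and 89.0 at 24 h. A second Grm7 region, in 7 lists, lay in the 3' UTR of only 1 of its 2 coding transcripts (Grm7-202, 455 nt past its own stop codon). Grm3, which glia express too, had a coding region in exon 2 at 89.5 to 98.9 in 7 lists that was not listed in Sham replicate 1.

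In total 31 of the 46 metabotropic receptor regions lay in the CDS, against 1 of the 14 AMPA receptor regions, of which the other 13 lay in the 3' UTR.

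Of the 14 scaffold genes, 5 held a region in all 8 lists: Shank2, Dlg3, Dlgap2, Dlgap4 and Homer1. Shank2, a master scaffold of the postsynaptic density, held it in exon 22 of 23, in the CDS, with a median percentile of 72.0, and in 7 lists a region at the stop codon itself with a median of 85.3. Shank1 and Shank3 were listed in 6 lists each. Dlg3 (SAP102) held its region 144 nt past the stop codon with percentiles of 76.9 to 91.0, and Dlgap4 137 nt past at 87.2 to 93.2. Dlg4, which codes for PSD-95, had at most 3 peaks in a list, none in 2 lists, and a best percentile of 47.7 in any list. Dlgap1 and Dlgap3 were each listed in 3 lists, all of them replicate 1 lists.

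Homer1 makes long scaffold proteins and short forms that uncouple receptors from them. The region in the last exon of 7 of its 11 coding transcripts, the long ones among them (chr13:93538637-93538936, 48 nt before the stop codon) stood at 97.8 and 81.4 in Sham, 94.6 and 94.9 at 0 h, 92.7 and 84.5 at 6 h and 67.6 and 91.2 at 24 h. The groups overlapped, and the 2 lists of MCAO/R-24 h differed by 23.6 percentiles. A region in the 5' UTR of 10 of the 11 coding transcripts, in all 8 lists, had a median percentile of 89.7. Another region (chr13:93502830-93503254) lay in the 3' UTR of only 2 transcripts, Homer1-205 and Homer1-206, which code for 203 and 233 residues against 354 to 370 in Homer1-201, Homer1-202 and Homer1-203. It stood at 52.2 and 79.2 in Sham, 65.6 and 88.4 at 0 h, and 91.1 and 95 at 6 h, and of the lists at 24 h it was listed at 40.7 in replicate 2 and not listed in replicate 1. It was described after its values were seen. The MCAO/R-6 h lists were above the other 5 in which it was listed, and no test was made because it was not in every list.

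Peaks of these genes lay more often in the 3' UTR, and less often in the CDS, than those of all genes. The 3' UTR held 47.6% ± 3.92 of their peaks per list (SD, n = 8) against 32.7% ± 1.08 for all peaks, the 5' UTR 10.9% ± 2.79 against 4.96% ± 0.317, and the CDS 39.4% ± 4.06 against 52.7% ± 1.73. Non-coding exons held 2.02% ± 1.13 against 9.60% ± 0.882. All peaks include those of non-coding genes, and the part of this in the differences was not tested. The share within 200 nt of the stop codon was 18.1% ± 3.15 (all genes 20.4% ± 0.396). In steps of 100 nt the share was highest from 100 to 200 nt past the stop codon, at 6.10% ± 2.0, and was 5.06% ± 1.98 from 300 to 400 nt, where all genes had 2.88% ± 0.171. Of the 23 regions in all 8 lists with a position on the coding transcript, 10 (43.5%) were centred in the first 500 nt past the stop codon, against 28.9% of such regions in all genes, a window chosen after the values were seen. The transcripts of the receptor and scaffold genes with a peak are longer, with a median of 5909 nt against 3848 nt for all protein-coding genes with a peak.

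**Figure D3:**
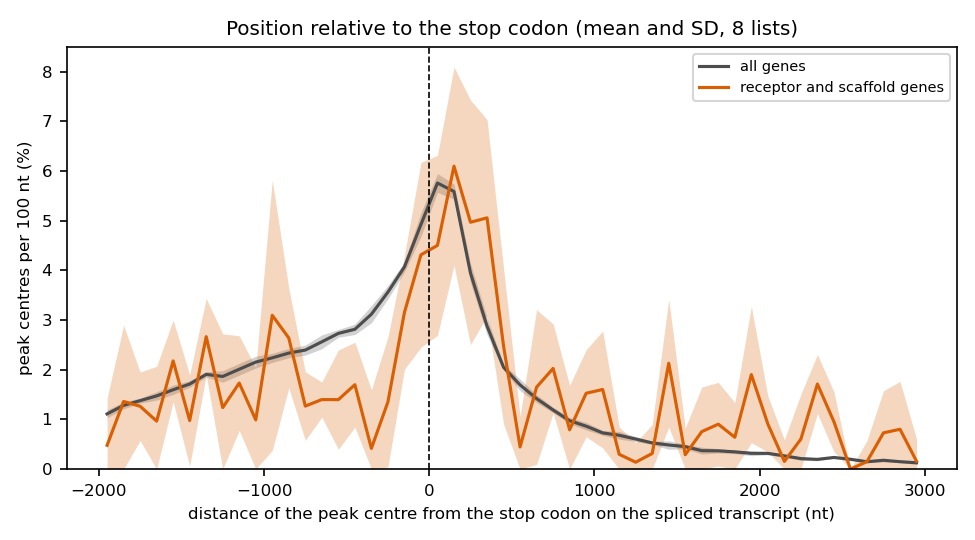
Share of peak centres in steps of 100 nt (y axis) by distance from the first base of the stop codon on the spliced transcript (x axis, in nt); lines are means over the 8 lists and bands are SD. The receptor and scaffold genes stay high out to 400 nt past the stop codon, with 5.06% from 300 to 400 nt against 2.88% for all genes.

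Per list the 38 genes held 73 to 101 peaks, or 0.431% ± 0.0316 of all peaks (SD, n = 8). The share was 0.485% and 0.452% in Sham, 0.439% and 0.419% at 0 h, 0.419% and 0.405% at 6 h and 0.383% and 0.450% at 24 h. Both Sham lists were above all 6 MCAO/R lists, the nearest by 0.452% against 0.450%, while the number of peaks was 91 in each Sham list and 73 to 101 in the others. The Sham lists were also short, with 18775 and 20152 peaks against 19072 to 24078, and the part of list length in the share was not tested. With every list cut to the length of the shortest the mean share over the 8 lists was 0.459%. The shares by group in that setting are not given, so this mean does not bear on the Sham difference. Their peaks held 17.0 ± 0.785 RRACH sites per kb (SD, n = 8) against 13.3 per kb in the exons of the same genes outside any peak, a ratio of 1.28 ± 0.0590.

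**Figure D4:**
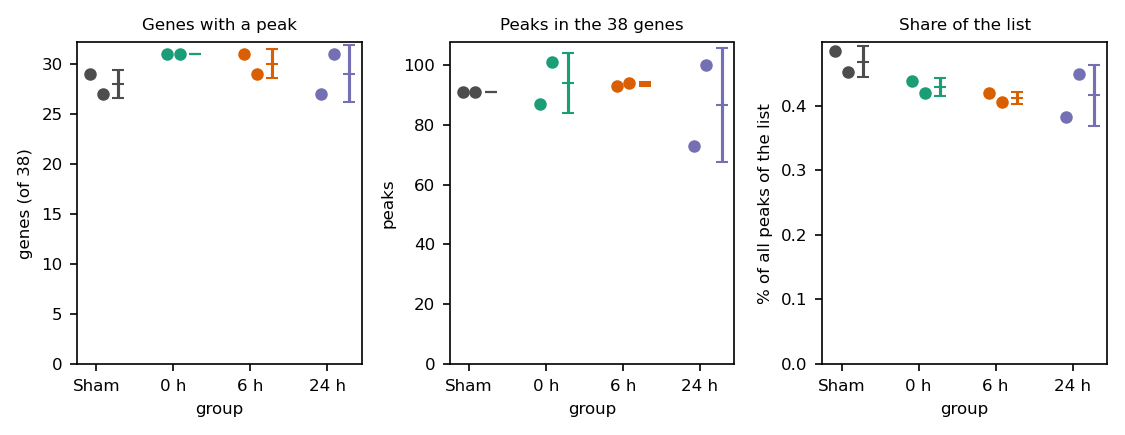
Number of the 38 genes with a peak (left), number of their peaks (middle) and their share of all peaks of the list (right) by group (x axis); points are lists and the bar beside them is mean and SD of 2 lists. The Sham shares of 0.485% and 0.452% lie above all MCAO/R shares, and the numbers of genes at 6 h and 24 h overlap those of Sham.

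A region was called gained at a time when it was in both lists of that time and neither Sham list, and lost in the reverse case. Of the 219 regions, 3 (1.37%) were gained and 3 (1.37%) lost at 0 h, 5 (2.28%) were gained and 4 (1.83%) lost at 6 h, and 2 (0.913%) were gained and 2 (0.913%) lost at 24 h. Over all 52776 regions, 2.61% were gained and 1.27% lost at 0 h, 3.43% and 1.41% at 6 h, and 2.53% and 1.84% at 24 h. The gained share was below that of all regions at each time, and the lost share was above it at the first 2 times and below it at the last. These differences are a description, and the 3 comparisons share the Sham lists. With 2 lists on each side an exact permutation test has 3 splits and a smallest p of 0.333. Called with 1 list in place of 2 on either side, the counts were 4 to 32 regions, since 1 list then decides. With the higher-scoring 50% of each list, 1 was gained and 5 were lost at 0 h. At 6 h these counts were 2 and 6, and at 24 h 1 and 4. A peak below the median rank of its list is dropped there, so a loss can be a lower rank. The shares over all regions in that setting are not given. The calls concern 17 regions in 9 genes, 6 of them in Grin3a.

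The sequences that go with the regions called in coding exons, and with the 1 region lost at every time, are shown with the motif in capitals as before. The coding region gained in Dlg1 is not shown, since none of the 6 forms was found in it.
Grin2b, gained in MCAO/R-0 h, chr6:135710879-135710903, minus strand: aatccgtgatGAACTcccccactgc
Grin3a, lost in MCAO/R-6 h, chr4:49792803-49792827, minus strand: cctccacaaaGGACCttctaagttt
Grin3a, gained in MCAO/R-6 h, chr4:49770919-49770943, minus strand: aatggtcactGGACTgggctggttg
Grin3a, gained in MCAO/R-6 h, chr4:49770538-49770562, minus strand: cctaaatgctGGACTggaagatttc
Grin3a, lost in MCAO/R-0 h, chr4:49714218-49714242, minus strand: tgatccagagAAACTagatgccttc
Grm2, lost in MCAO/R-6 h, chr9:106527609-106527633, minus strand: gcctctacaaGGACTtcgtgctcaa
Grm2, gained in MCAO/R-6 h, chr9:106524992-106525016, minus strand: ctgggcggtgGGACCtgtcaccatc
Homer3, gained in MCAO/R-24 h, chr8:70743786-70743810, plus strand: tgcagaggctGAACTcttgaggcag
Grik4, lost at each time, chr9:42719941-42719965, minus strand: agccttgttaGGACTcacatgcttg

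Grik4, a kainate subunit of high glutamate affinity, held the only one of the regions of these genes that was lost at all 3 times. The share of the regions of all genes lost at all 3 times is not given, so this is a description. It lies in exon 1 of Grik4-201, in the 5' UTR (chr9:42719906-42719980), and stood at 28.9 and 58.6 in the Sham lists. No MCAO/R list had a peak there. The 3' UTR region of Grik4 (which overlaps an exon of Gm55337 on the same strand) was listed in all 6 of them at 55.4 to 93.8, and in Sham replicate 2 at 66.3.

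In Grin2b a coding region of the last exon, 1795 nt before the stop codon, was gained in MCAO/R-0 h at 85.4 and 89.4. It was also listed in MCAO/R-6 h replicate 2 at 89.1 and in MCAO/R-24 h replicate 1 at 76.3. In Sham replicate 1 the nearest peak centre was 212 nt away and in replicate 2 it was 2887 nt away.

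Grin3a, whose subunit lowers the calcium permeability of NMDA receptors, had gains and losses side by side within its coding exons. A region 1644 nt before the stop codon was listed only in MCAO/R-6 h, at 80.0 and 88.1, and one 1119 nt before it at 29.2 and 70.8 in MCAO/R-6 h, with 23.4 in MCAO/R-0 h replicate 1 and 53.2 in MCAO/R-24 h replicate 2. Neither was listed in a Sham list. A region 2481 nt before the stop codon stood at 52.3 and 87.3 in Sham, at 74.4 in MCAO/R-0 h replicate 1 and at 40.2 and 85.5 in MCAO/R-24 h, and was lost in MCAO/R-6 h. The region 890 nt before the stop codon was listed in Sham at 65.8 and 60.4, in MCAO/R-6 h replicate 1 at 39 and in MCAO/R-24 h replicate 2 at 37.6, and was lost in MCAO/R-0 h. In the 3' UTR, a region 392 nt past the stop codon was gained at 0 h (17.6 and 45.1), with 46.4 in MCAO/R-24 h replicate 2, and one 3317 nt past it in MCAO/R-6 h (34.6 and 15.1), with 31.0 there. In the Sham lists the nearest Grin3a peak centre was 272 and 216 nt from the region 1119 nt before the stop codon, 762 and 741 nt from that 1644 nt before it, 575 and 600 nt from that 392 nt past it, and 3500 and 3525 nt from that 3317 nt past it. Grin3a itself was listed in every list.

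Grik3 lost 2 regions of its 3' UTR at different times. The one 374 nt past the stop codon, absent only in MCAO/R-6 h, stood at 74.8 and 69.6 in Sham, 34.9 and 67.9 at 0 h, and 63.9 and 49.8 at 24 h. The one 4424 nt past it, absent only in MCAO/R-0 h, stood at 65.0 and 57.7 in Sham, 59.6 and 77.3 in MCAO/R-6 h, and 62.3 and 67.0 in MCAO/R-24 h. Both were listed in the other 6 lists.

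Grm2, a presynaptic receptor that lowers glutamate release, had a region called lost and another called gained in MCAO/R-6 h, in adjoining coding places. The region 1341 nt before the stop codon was listed in Sham (74.0 and 64.0), MCAO/R-0 h replicate 1 (88.4) and MCAO/R-24 h (80.1 and 58.0) and in neither MCAO/R-6 h list. That 978 nt before the stop codon was listed only in MCAO/R-6 h, at 45.7 and 20.8. In the Sham lists the nearest peak centre to the gained place was 388 and 288 nt away, and in the MCAO/R-6 h lists the nearest to the lost place was 175 and 350 nt away. The lost region (chr9:106525188-106527681) directly adjoins another Grm2 region (chr9:106527682-106527881), which was listed in MCAO/R-6 h replicate 1 at 54.6. Whether a peak boundary moved there was not tested.

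Among scaffolds, Dlg2 (PSD-93) was listed in all 6 MCAO/R lists and neither Sham list, with 2, 2, 2, 2, 2 and 1 peaks and best percentiles of 70.9 and 58.7 at 0 h, 74.4 and 58.8 at 6 h and 42.3 and 21.1 at 24 h. Of all protein-coding genes 73 (0.335%) had this pattern, and Dlg2 was picked out after its values were seen. With the higher-scoring 50% of each list Dlg2 no longer had it. Its peaks were spread over 5 regions. One in a non-coding exon (chr7:90126505-90126654) was gained in MCAO/R-0 h at 48.4 and 58.7 and also listed in MCAO/R-6 h replicate 2 at 58.8, and one in the 5' UTR of 3 of its 8 coding transcripts was gained in MCAO/R-24 h at 10.1 and 21.1, with 12.4 in MCAO/R-6 h replicate 2. The non-coding region shares bases with a neighbouring Dlg2 region that was kept apart because peaks touching an exon of a coding transcript were cut to such exons. Taken as 1 region, both would be in 5 lists and would count as gained in MCAO/R-6 h as well. No other pair among the 219 regions shares bases in this way. Dlg1 (SAP97) gained a coding region in MCAO/R-6 h at 27.4 and 36.9, found in no other list. Homer3 gained one in MCAO/R-24 h at 19.0 and 31.8, with 20.5 in MCAO/R-0 h replicate 2, and Dlgap2 lost one 913 nt past the stop codon in MCAO/R-24 h that stood at 69.0 and 61.6 in Sham, 45.8 in MCAO/R-0 h replicate 1 and 48.8 in MCAO/R-6 h replicate 1.

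**Figure D5:**
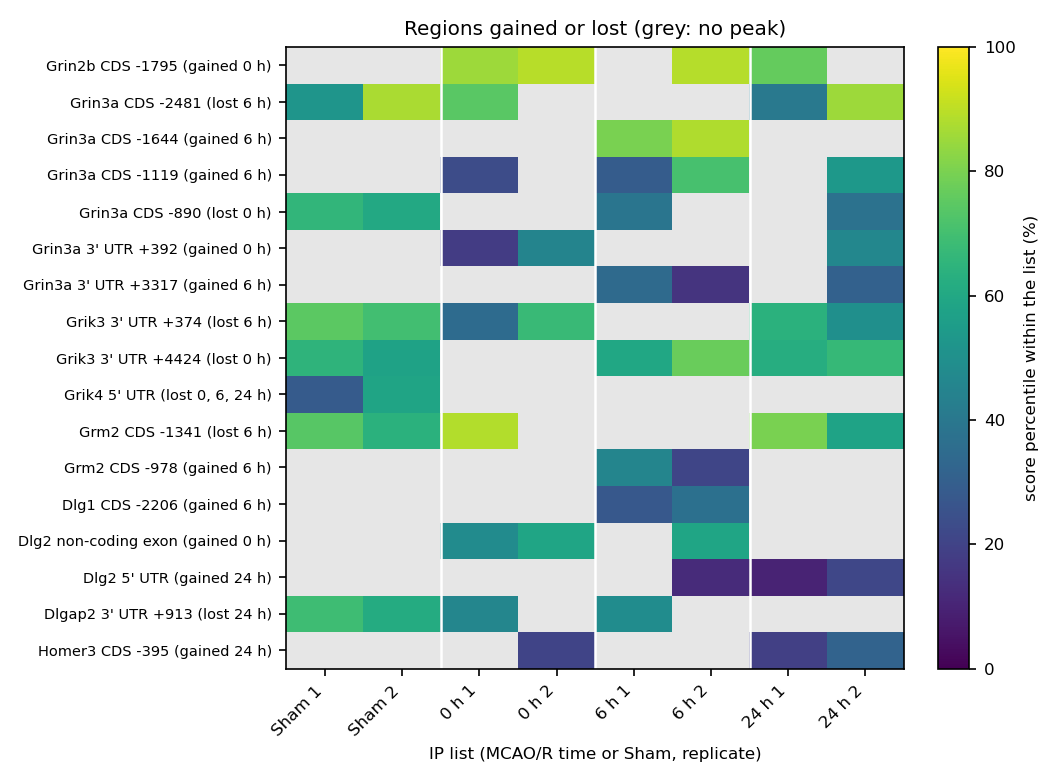
Score percentile in each of the 8 IP lists (columns) of the 17 regions called gained or lost against Sham (rows, with gene, place, distance from the stop codon in nt where it has one, and call); grey marks no peak. Grik4 in the 5' UTR is filled in the Sham lists only, and the Grin3a region 1644 nt before the stop codon in the MCAO/R-6 h lists only, at 80.0 and 88.1.

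There were 19 calls in these 17 regions. With every list cut to the length of the shortest, 18 of the 19 were kept, the exception being the Grin3a region 3317 nt past the stop codon. With the higher-scoring 50% of each list 8 were kept, which ended the calls of Grik4, Dlg1, Dlg2, Homer3, the gained Grm2 region and 3 of the Grin3a regions, since a peak below the median rank of its list is then dropped. Calls that were kept under both were the gain in Grin2b, the losses in Grik3 and Dlgap2, the lost Grm2 region, and in Grin3a the gain 1644 nt and the losses 2481 nt and 890 nt before the stop codon.

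Other genes of glutamate signalling were counted as a list of 36, of which 33 held a peak, 16 in all 8 lists. The list holds 14 auxiliary subunits, 16 trafficking and signalling partners, 3 neuronal pentraxins and 3 glutamate transporters, of which Slc1a3 was also used as an astrocyte marker. All 14 auxiliary subunit genes were marked, 10 of them in all 8 lists (among them Cacng2, stargazin, which carries AMPA receptors to the synapse, and the kainate receptor partners Neto1 and Neto2). Agap2, Nptx1 and Nptxr held none. Of the 164 regions of the list, 3 (1.83%) were gained and 2 (1.22%) lost at 0 h, 2 (1.22%) and 1 (0.610%) at 6 h, and 7 (4.27%) and 2 (1.22%) at 24 h. Beside the shares over all regions (2.61% and 1.27%, 3.43% and 1.41%, and 2.53% and 1.84%), the gained share was lower at 0 h and 6 h and higher at 24 h, and the lost share was lower at each time. The 7 lay in Cacng3, Cacng4, Cacng5, Shisa6, Shisa9 and Arc. Arc, an immediate-early gene whose protein removes AMPA receptors from the synapse, had 1 and 0 peaks in Sham, none at 0 h and 6 h, and 2 and 3 at 24 h.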

How the data were processed

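The deposited peak lists of the 8 IP libraries were used, and the 8 input libraries were not analysed here. According to the methods and labels the authors used Trim Galore for trimming, HISAT2 for alignment to GRCm39, SAMtools to drop reads without a unique position, and exomePeak2 for peaks. Whether replicates were pooled for a call is not given in the sources used here. The deposited score of a peak, on a scale the authors do not define, was used only as a percentile within its list. RNA was fragmented to different lengths according to the methods and the labels.

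Peaks are deposited as 1 block including introns. Each was assigned on its strand to the gene with the most exonic overlap (GENCODE M39, protein-coding basic transcripts, or all transcripts where a peak touched none of those), reduced to its exonic bases and joined with peaks of other lists into regions by at least 1 shared base, in Python 3.11.15 with numpy 2.4.6, pysam 0.24.0 and matplotlib 3.10.9, and tested on simulated lists. Peaks were placed by their middle base, coding sequence first. Positions use the transcript with the longest coding sequence. Sequences are from GRCm39. Group differences in rank used an exact permutation test with Benjamini-Hochberg adjustment over all regions in all 8 lists. Depth is unknown, so no counting interval is given.

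The genes, lists and tests were chosen with earlier results of these data known. Values in every list are given for the 10 highest-ranking regions in all 8 lists (1 per gene), every region gained or lost, and every region with an unadjusted p under 0.05; others are said to be chosen after their values were seen. Alternatives were equal list lengths, the higher-scoring 50% of each list, leaving out each list, other joining and assignment rules, a replicate block, a rank among shared regions, and another window, transcript and motif. Some markers of the tissue check are not reported here.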

Additional observations from a re-analysis of the deposited data

How the results depend on the processing

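With the higher-scoring 50% of each list, the 38 genes held a peak in 24.0 genes per list and took 0.535% of the peaks. Under it 1 region was gained and 5 were lost at 0 h, 2 were gained and 6 lost at 6 h, 1 was gained and 4 were lost at 24 h, and the RRACH ratio was 1.35. The ratio was also 1.35 with GGACT alone, but with a wider spread over the lists (SD 0.331, against 0.0590 for RRACH in all peaks). The share of peak centres near the stop codon was 29.9% in a window of 400 nt. Ranked among the regions in all lists, 3 of the 24 regions had an unadjusted exact permutation p under 0.05. The share over all regions in that setting is not given.

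Leaving out each list in turn gave 3 to 26 regions gained and 3 to 25 lost at 0 h, 5 to 31 gained and 4 to 32 lost at 6 h, and 2 to 27 gained and 2 to 28 lost at 24 h. It gave 1 to 3 regions with an unadjusted exact permutation p under 0.05 (2 without MCAO/R-0 h replicate 2, 3 without MCAO/R-6 h replicate 1). The shares over all regions in these settings are not given. A call cannot be lost when a list is left out, since the rule then asks for less, so these settings do not test the 19 calls. Genes per list ranged from 29.3 to 29.9, the share of peaks from 0.424% to 0.438% and regions in all lists from 23 to 28.

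With the replicate block, 0 of the 24 regions had an exact permutation p under 0.05 (all genes 306 regions, 6.46%), and that of Gria1 was 0.0833, where the smallest possible is 0.0417. The numbers were not shown to pair the lists: deviations of same-numbered lists correlated at 0.0336 to 0.0982 over the 6 pairs of groups. For Gria1, 6 of 13 alternatives kept an exact permutation p under 0.05, from 0.0286 to 0.2. The listing of Dlg2 in MCAO/R lists alone was tried under alternatives chosen after seeing the data, of which 2 could end it: it ended with the higher-scoring 50% of each list and not with lists of equal length. Depth is unknown, so a missing peak is not absence of the mark. The cause of these shifts was not tested.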
